A study of Homo sapiens with 8 samples.

Results

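LNCaP cells exposed for 12 h to recombinant human asporin (ASPN, a small leucine-rich proteoglycan that stromal cells secrete into the matrix) were compared with cells collected at the start of the exposure (time 0, written 0 h). The comparison uses 5 of the 8 libraries of the series, 2 at 0 h and 3 at 12 h, and the 21071 genes that passed a filter on low counts out of 36474 in the table. LNCaP is an established, androgen-responsive line from a metastatic prostate carcinoma. Cells of every group had been starved in a medium lacking serum and calcium, and rASPN was then given at 100 ng/mL to cells in separate wells, which the labels call biological replicates. Messenger RNA was sequenced and reads were counted per gene. Libraries kept for 12 h in the same medium without ASPN were not analysed here, so hours in the starvation medium and hours with ASPN cannot be told apart.

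Several systems met in the results are known from cell biology and are introduced here as background. Secreted and membrane proteins are moved into the endoplasmic reticulum (ER), folded there by chaperones and carried on in coated vesicles, and sensors in the ER membrane adjust the genes of this apparatus to its load. The factor ATF4 raises genes for amino acid uptake, amino acid synthesis and tRNA charging when amino acids are short or proteins misfold. The factor p53, which LNCaP cells carry in its normal form, raises genes that halt the cell cycle, and E2F factors raise genes that duplicate DNA.

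The libraries held 73406825 to 96962135 counts over the whole series, and mitochondrial genes took 6.2% to 7.32% of them. Levels are given as CPM, which are counts scaled to a common library size by the trimmed mean of M values. The 12 markers of prostate luminal and epithelial cells were all above 1 CPM in their mean, and their summed level was 5629 and 5720 CPM at 0 h and 6164 to 6227 CPM at 12 h. The 19 markers of basal, stromal, immune, endothelial, neuroendocrine and red cells that the table held summed to 50.2 and 52.9 CPM at 0 h and 46.5 to 49.6 CPM at 12 h, and 13 of them were under 1 CPM. PTPRC, CD3E and MS4A1 (leukocytes), PECAM1 and CDH5 (endothelium), TP63 (basal cells) and DCN (fibroblasts) were below the filter. ASPN itself was at 0 counts in both 0 h libraries and in 2 of the 3 libraries at 12 h, and at 0.013 CPM in the remaining library, under the 0.0392 CPM that a count of 0 allows there. Of the 10 that passed the filter, 0 passed the test at 12 h by edgeR or DESeq2 and 1, VIM, had an unadjusted p under 0.05 (adjusted p 0.0597 by edgeR). With the GC correction described next 1 of them was lower.

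A property of the libraries touches every count that follows. The slope of a library's log2 CPM on the GC content of the transcripts, taken over 13451 well-counted genes and expressed per 10% GC, was -0.0931 in 0 h replicate 1 and -0.0227 in the other 0 h library. The 12 h libraries had slopes of 0.0732, -0.012 and 0.0148, so libraries of the same group differed by as much as the groups did. In the quintile of lowest GC content (median 38.4%), 34 genes rose and 645 fell. In the quintile with the highest GC content (median 61.2%), 534 were higher and 69 lower. After library offsets were corrected for GC content and transcript length, these counts were 225 and 316 in the lowest quintile and 285 and 212 in the highest, and 1703 of the 2443 genes past the test remained, all with the same sign. The correction removes any change that follows GC content, whatever its source, and the source was not tested. 0 h replicate 1 also decided how many genes passed: without it, 624 genes reached an adjusted p of 0.05, and 607 of these were among the 2443. Counts for the gene groups are given as fitted and, for the groups described at length, with the correction and without that library, where the single remaining 0 h library is assumed to vary like the others.

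**Figure D1:**
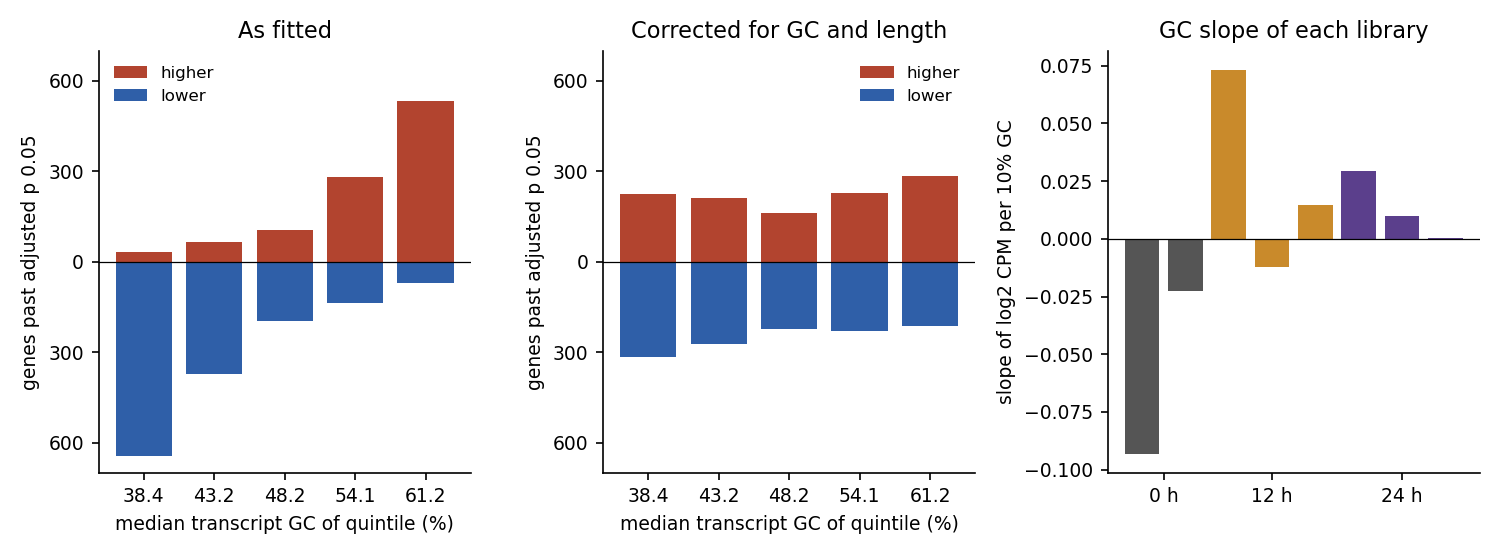
Genes past an adjusted p of 0.05 at 12 h by quintile of transcript GC content, as fitted (left) and after correction of the library offsets for GC content and length (middle), with higher genes above and lower genes below the axis, and the GC slope of each of the 8 libraries (right, 1 bar a library in log2 CPM per 10% GC). As fitted, lower genes fall from 645 in the lowest quintile to 69 in the highest; after correction both directions are spread over all quintiles, and the 0 h library with the slope of -0.0931 is the most extreme.

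The early response was broad and shallow. Of the 21071 genes, 2443 (11.6%) reached a Benjamini-Hochberg adjusted p of 0.05 by the quasi-likelihood test of edgeR, 1021 higher (4.85%) and 1422 lower (6.75%). Of these, 1269 (51.9%) had changed by less than 1.2-fold, 952 (39%) by 1.2-fold to 1.5-fold, 144 by 1.5-fold to 2-fold and 78 by 2-fold or more. Adding a fold change of at least 1.5, the threshold of the study, left 222 genes (1.05%), 103 higher (0.489%) and 119 lower (0.565%). Over all tested genes, 36.9% had no overlap in CPM between the 0 h and the 12 h libraries.

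The share of genes past the test rose with abundance, together with the precision of the measurement. It was 0.638% for genes under 0.1 CPM and 1.13% from 0.1 to 1 CPM, where the median standard error (SE) of a log2 change was 0.952 and 0.499. It was 7.35% from 1 to 10 CPM (SE 0.154), 19.6% from 10 to 100 CPM (SE 0.0621), 28.4% from 100 to 1000 CPM (SE 0.0467) and 27.7% at 1000 CPM and over (SE 0.0418). The smallest log2 change that passed was 3.19 in absolute size in the least abundant class and 0.123 in the most abundant class, so a small change in a rare transcript was not detectable at this depth. With a fold of at least 1.5 required as well, the share rose only up to 10 CPM: it was 0.638%, 1.13% and 2.62% in the 3 classes below 10 CPM (7, 69 and 113 genes), then 0.388% from 10 to 100 CPM (29 genes), 0.205% from 100 to 1000 CPM (4 genes) and 0% above (0 genes). The 0 genes called in the top class stand beside 28 past the adjusted p there. In 12 of the 222 called genes, all under 1 CPM, a group had no library above 3 counts. Ranked instead by counts per kb of exon, for the 16964 genes whose exon length was known, the shares ran from 1.02% in the lowest class to 26.4% in the second highest and were 16% in the highest.

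**Figure D2:**
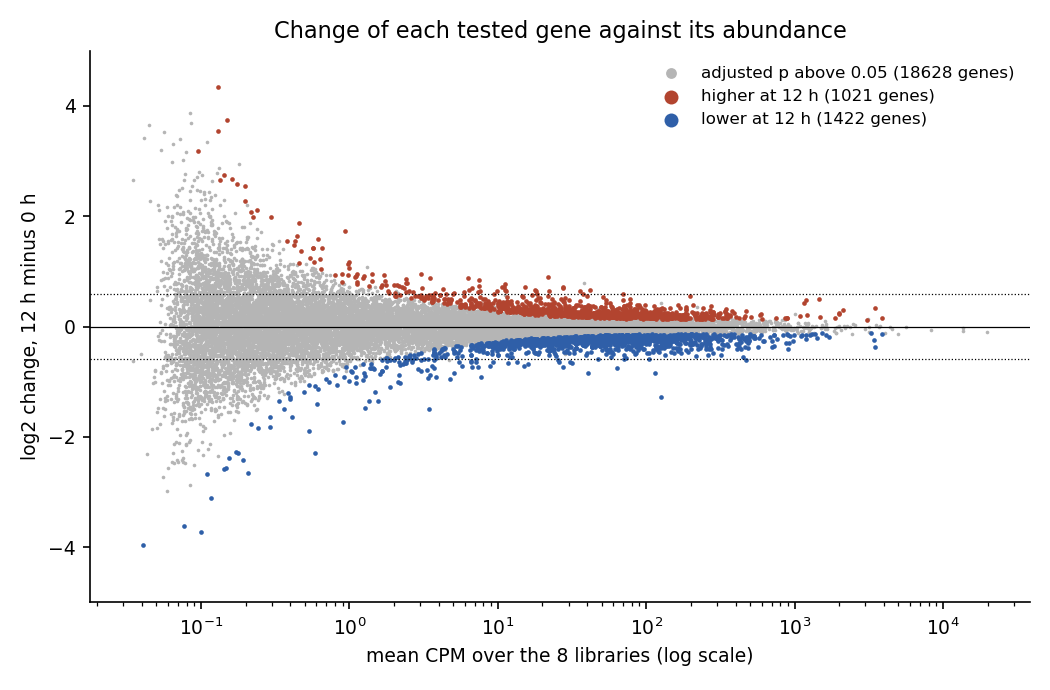
Log2 change from 0 h to 12 h (vertical axis) of each tested gene against its mean CPM over the 8 libraries (horizontal axis, log scale), with genes past an adjusted p of 0.05 in red (1021 higher) and blue (1422 lower) and dotted lines at 1.5-fold. The coloured genes form a funnel that narrows with abundance, and 8 genes beyond the vertical limits are not drawn.

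**Figure D3:**
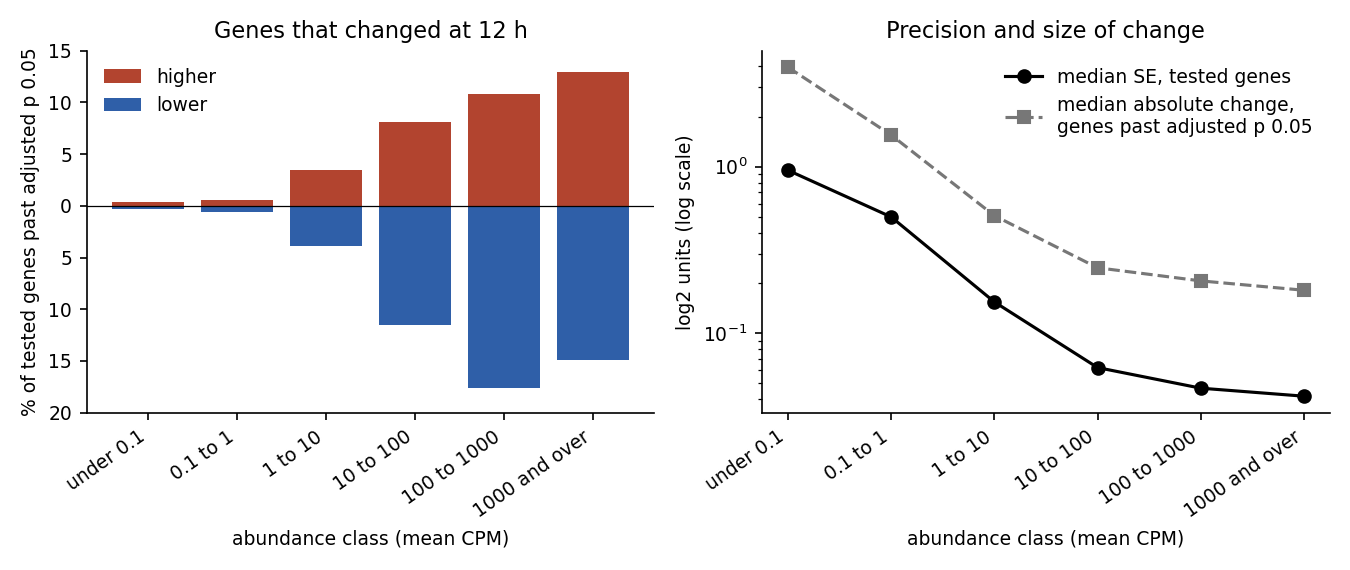
Percentage of tested genes past an adjusted p of 0.05 in each class of mean CPM, higher above and lower below the axis (left), and on a log scale the median SE of tested genes and the median absolute log2 change of genes past the test (right). The share lower at 12 h reaches 17.6% from 100 to 1000 CPM, while the median SE falls from 0.952 to 0.0418 across the classes.

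Most of the loss lay in genes from 100 to 1000 CPM. Summed over genes past the test, mean CPM rose by 14900 in the higher genes and fell by 27000 in the lower genes. Genes from 100 to 1000 CPM rose by 5950 CPM and fell by 15600 CPM in these sums, whereas those at 1000 CPM and over rose by 4460 CPM and fell by 4010 CPM. The 317 genes that passed between 1 and 10 CPM rose by 235 CPM and fell by 309 CPM.

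The genes with the widest change differed in kind from class to class. From 10 to 100 CPM the rises were led by UHRF1, which recognises newly copied DNA for methylation, with GINS2 and MCM10, which activate the replicative helicase. UHRF1 was at 11.8 and 12.5 CPM at 0 h and at 21.7, 23.4 and 22.8 CPM at 12 h, which is 0.90 on the log2 scale (SE 0.0714, with an edgeR adjusted p of 1.14e-09). The falls in that class were led by PTPDC1, a protein phosphatase (log2 -0.85), NIBAN1, a stress-induced regulator of translation (-0.75), and MAN1A1, a Golgi enzyme that trims mannose from glycoproteins (-0.73). PTPDC1 was at 66.7 and 57.9 CPM at 0 h and at 36.4, 31.5 and 36.2 CPM at 12 h. Genes named by class were picked for having no overlap between groups, so that property is not a result. Genes named from lists and noncoding types were picked for small p-values, which favours separated groups.

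From 100 to 1000 CPM the rises were smaller and belonged to CSRP1, a LIM-domain protein of the actin cytoskeleton (log2 0.55), and to KLK2, an androgen-induced gene of prostate epithelium (0.39). CSRP1 was at 141 and 146 CPM at 0 h and at 210.1, 214 and 207 CPM at 12 h. The falls were larger. SLC39A10, a zinc importer, went from 241 and 224 CPM to 93.0, 93.2 and 101 CPM (log2 -1.28, SE 0.151, adjusted p 0.00476). MAP1B, a microtubule-associated protein, went from 189.7 and 164 CPM to 102, 87.4 and 106 CPM (log2 -0.84), and SLC7A11, which imports cystine, had a log2 change of -0.60. SLC39A10 had an adjusted p of 0.0763 when 0 h replicate 1 was left out.

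Among the 101 genes at 1000 CPM and over, the largest rises were in FASN (fatty acid synthase), KLK3 (which encodes the prostate-specific antigen) and CKB (brain creatine kinase), and the largest falls in the ER proteins HSPA5, HSP90B1 and PDIA3. KLK3 was at 912 and 1019 CPM at 0 h and at 1386, 1320 and 1361 CPM at 12 h (log2 0.49, SE 0.0485, adjusted p 3.37e-08). CKB was at 891 and 929 CPM at 0 h and at 1305, 1170.2 and 1218 CPM at 12 h (log2 0.44, SE 0.0446). By the difference in mean CPM, which is not scaled to transcript length, ENO1, FASN, FADS2, KLK3, GAPDH and PGK1 gained most among genes past the test. HSPA5, HSP90B1, HYOU1, MT-ND1, CALR and GDF15 lost most. These 12 genes hold enzymes of glycolysis and fatty acid synthesis on the rising side and ER proteins on the falling side, and the exceptions are KLK3, MT-ND1, a respiratory subunit of the mitochondrial genome, and GDF15, a stress cytokine. Leaving out 0 h replicate 1 gave adjusted p-values of 0.0665 for HSP90B1, 0.0503 for PDIA3, 0.0806 for GAPDH, 0.0894 for MT-ND1, 0.249 for CALR and 0.369 for GDF15. Over all alternatives MT-ND1 passed in 5 of 18, CALR in 7 and GAPDH and GDF15 in 14. The GC correction took HSP90B1 to -0.15, GAPDH to 0.10 (adjusted p 0.0738) and GDF15 to -0.29.

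Most genes past the test were protein-coding. Of 14261 protein-coding genes tested, 958 were higher and 1332 lower (16.1% in all), against 42 higher and 69 lower of 4402 long noncoding RNA genes (2.52%). From 1 to 10 CPM 9.9% of 2556 coding genes and 3.86% of 1218 long noncoding RNA genes passed (median SE 0.138 and 0.173). Within the class from 10 to 100 CPM the difference was smaller: 19.9% of 7164 coding genes and 17.4% of 201 long noncoding RNA genes passed. In that class 9 long noncoding RNAs were higher and 26 lower, and from 100 to 1000 CPM 0 were higher and 5 lower of 16, all by edgeR. No test between gene types was run.

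NBR2, a long noncoding RNA, was at 44.8 and 40.8 CPM at 0 h and at 30.5, 31.0 and 30.4 CPM at 12 h (log2 -0.48, SE 0.0598, adjusted p 1.42e-06). LINC00662 fell from 70.0 and 65.5 CPM to 50.4, 49.6 and 51.2 CPM (log2 -0.43), and FLJ20021 and LINC02593 rose by 0.29 and 0.43. Among host genes of small nucleolar RNAs, whose spliced transcripts are mostly noncoding, 2 of 26 were higher and 4 lower, the latter being SNHG29, SNHG32, SNHG8 and ZFAS1 with log2 changes of -0.19 to -0.29. In these 8 genes, named by rules that favour separated groups, no 12 h value reached the 0 h range (36.9% of all genes had no overlap). With 0 h replicate 1 left out, edgeR adjusted p-values were 0.189 for FLJ20021, 0.162 for LINC02593 and 0.0573 for SNHG29, and the host gene list had 0 higher and 3 lower. The GC correction took SNHG8 from -0.22 to -0.12 (adjusted p 0.454) and left 4 host genes higher and 3 lower, and SNHG8 also missed the threshold without the other 0 h library.

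Pseudogenes gave few results. Of processed pseudogenes 1.13% passed the test (median SE 0.526), against 11.6% of all genes. From 0.1 to 1 CPM, where precision was similar (SE 0.499), the share over genes of every type was also 1.13%. Of 1061 processed pseudogenes, 9 were higher and 3 lower, of 379 transcribed unprocessed pseudogenes 5 and 5, and of 250 unprocessed pseudogenes 1 and 7. TPI1P1, a processed copy of the glycolytic gene TPI1, was at 3.37 and 3.19 CPM at 0 h and 5.36, 4.32 and 4.97 CPM at 12 h (log2 0.57, SE 0.135), and SRP72P2, a copy of a signal recognition particle gene, fell by 0.91 on the log2 scale. Such copies share sequence with their parents and their counts are uncertain, since the treatment of reads that map to both was not stated. The parent TPI1 rose by 0.17 on the log2 scale (adjusted p 0.0111 by edgeR). The adjusted p-values without 0 h replicate 1 were 0.0567 for TPI1P1, 0.065 for SRP72P2 and 0.0839 for TPI1. Of the 59 precursor genes of microRNAs, which libraries of polyadenylated RNA measure poorly, 0 passed by edgeR or DESeq2 and 4 had an unadjusted p under 0.05. The lowest adjusted p by edgeR was that of MIR210 (0.0705).

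Most genes of the ER and the early secretory pathway were lower at 12 h. Of 20 ER chaperones and disulfide isomerases tested, 17 were lower at 12 h and 0 higher, with a median log2 change of -0.27. Of all genes 6.75% were lower, and of those from 100 to 1000 CPM 17.6%. Of 18 genes of ER-associated degradation, which returns misfolded proteins to the cytosol, 13 were lower and 0 higher (median -0.23). Of 22 genes of the translocon and signal recognition particle, which bring new proteins into the ER, 16 were lower and 0 higher (-0.24). Of 27 genes of COPI and COPII vesicle transport, which hold coat genes and cargo proteins, 18 were lower and 0 higher (-0.21). Together the ER chaperones that passed fell by 3330 CPM.

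HSPA5, the chaperone BiP, was at 4725 and 4467 CPM at 0 h and at 3559, 3466 and 3707 CPM at 12 h (log2 -0.36, SE 0.0445, adjusted p 1.22e-06). HYOU1, its nucleotide exchange partner, was at 1193 and 1176 CPM and then at 909, 853 and 917 CPM (log2 -0.41). SEL1L, the scaffold of the main ER ubiquitin ligase, was at 678 and 586 CPM and then at 428, 414 and 458 CPM (log2 -0.54). The groups did not overlap for any of the 3, which were named by rules that favour this (36.9% of all genes had no overlap). At 24 h the means were lower again, at 2703 CPM for HSPA5, 720.3 CPM for HYOU1 and 339 CPM for SEL1L.

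Genes along the route of a secreted protein were lower too. SEC61A1, the pore of the translocon, had a log2 change of -0.29, SSR3 of the translocon-associated complex -0.40 and SRPRA, the receptor of the signal recognition particle, -0.31. The COPII coat gene SEC24D was at 177 and 164 CPM at 0 h and at 126, 119.8 and 125 CPM at 12 h (log2 -0.47, SE 0.0513), and the COPI coat gene COPB1 had -0.39. Of 11 oligosaccharyltransferase genes, which attach sugar chains, 5 were lower, among them STT3A (-0.20), STT3B (-0.22), MAGT1 (-0.28) and OSTC (-0.35). STT3B was counted in the list of ER-associated degradation as well. Of the sensors of unfolded protein, ERN1 (the kinase IRE1) fell from 100.7 and 93.9 CPM to 69.1, 61.9 and 73.4 CPM (log2 -0.51, adjusted p 2.19e-07), EIF2AK3 (the kinase PERK) by 0.32 and ATF6 by 0.26 on the log2 scale. Leaving out 0 h replicate 1 gave adjusted p-values of 0.0831 for STT3A, 0.138 for STT3B and 0.053 for ATF6, and 2 oligosaccharyltransferase genes were lower. After the GC correction 6 were, with STT3B at -0.14 and MAGT1 at -0.18.

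With the GC correction, 19 of the ER chaperones were lower, 13 of the degradation genes, 16 of the translocon genes and 19 of the vesicle transport genes, and none was higher. Without 0 h replicate 1 the numbers lower were 10, 7, 9 and 10, again with 0 higher, and the medians were -0.23, -0.18, -0.20 and -0.18.

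Promoters were searched for a sequence known to bind factors of the unfolded protein response. The ER stress response element consists of CCAAT and CCACG with 9 bases of any kind between them, and it was searched on both strands in the 300 bases from 250 before to 50 after the start of each gene in RefSeq (GRCh38.p14). Of 12469 tested genes with such a window, 16 (0.128%) hold it, and of 19 ER chaperone genes with a window 6 do (31.6%). None of 13 degradation, 20 translocon and 24 vesicle transport genes with a window holds it. Of the 16 genes, 11 were lower at 12 h and 0 higher (68.8%, against 8.98% lower among all genes with a window). The 6 chaperone genes are among these 16 and all 6 were lower, so this share partly restates the chaperone counts above. After the GC correction 11 were again lower, and without 0 h replicate 1 4 were. The stretches below are shown because they carry the element, in capitals, in 3 abundant members of the list.
HSPA5, chr9:125241376-125241424, minus strand: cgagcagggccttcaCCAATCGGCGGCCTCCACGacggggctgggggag
HSP90B1, chr12:103930201-103930354, plus strand: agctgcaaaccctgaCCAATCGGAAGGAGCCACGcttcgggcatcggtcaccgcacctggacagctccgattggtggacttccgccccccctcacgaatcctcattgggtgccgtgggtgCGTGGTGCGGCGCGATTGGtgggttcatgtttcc
CALR, chr19:12938369-12938417, plus strand: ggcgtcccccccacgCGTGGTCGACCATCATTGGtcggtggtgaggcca

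HSP90B1 holds the element in both orientations within these 154 bases. HSP90B1 went from 4260.1 and 3804 CPM to 3451, 3365 and 3382 CPM (log2 -0.25), and CALR, which folds glycoproteins, from 3545 and 3480.2 CPM to 3204, 3215 and 3256 CPM (log2 -0.12, adjusted p 0.0342 by edgeR). With 0 h replicate 1 left out, edgeR adjusted p-values were 0.0665 for HSP90B1 and 0.249 for CALR, and CALR also missed the threshold without the other 0 h library. A match is a description of these windows and was not tied to binding of any factor.

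In the lists of amino acid supply nearly all members that passed were lower. Of all genes 6.75% were lower, and of those from 100 to 1000 CPM 17.6%. Of 17 regulators of the ATF4 pathway, 11 were lower and 1 higher (median -0.26), of 19 amino acid transporters 9 lower and 0 higher (-0.20), of 18 genes of serine, one-carbon and asparagine synthesis 7 lower and 0 higher (-0.10), and of 20 cytosolic tRNA synthetases 12 lower and 0 higher (-0.16). Of 17 mitochondrial tRNA synthetases, 0 passed by edgeR or DESeq2 and 2 had an unadjusted p under 0.05, with a median of 0.02, and 1 was higher after the GC correction. The contrast between both sets of synthetases is a description of the counts and was not tested.

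SESN2, a brake on amino acid signalling that both ATF4 and p53 are known to raise, was at 137 and 134 CPM at 0 h and at 102, 89.7 and 101 CPM at 12 h (log2 -0.48, SE 0.0515, adjusted p 1.32e-07). ATF3 and DDIT3 (CHOP), factors downstream of ATF4, had log2 changes of -0.50 and -0.47. SLC7A11 was at 739 and 616 CPM and then at 430, 427 and 482 CPM, and its partner chain SLC3A2 at 337 and 334 CPM and then at 267, 249.7 and 265 CPM (log2 -0.37). No 12 h library reached the lowest 0 h library in any of these genes, which were named by rules that favour this. Among all tested genes 36.9% had no overlap.

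Among enzymes, MTHFD2 of the mitochondrial folate pathway fell from 449.6 and 395 CPM to 289, 294 and 301 CPM (log2 -0.52, adjusted p 2.74e-08), PSAT1 of serine synthesis by 0.36 and CTH of cysteine synthesis by 0.58 on the log2 scale. WARS1, which charges tryptophan tRNA, was at 398 and 365 CPM and then at 273, 271 and 278 CPM (log2 -0.48), and GARS1 for glycine had -0.38. After the GC correction 12 ATF4 regulators, 10 transporters, 11 synthesis genes and 12 synthetases were lower. Without 0 h replicate 1 the numbers were 9, 7, 5 and 10.

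The amino acid response element, searched as TGATGNAA in the same windows, was in 222 of the 12469 genes (1.78%) and in 6 of 16 cytosolic tRNA synthetase genes (37.5%), 4 of 17 transporter genes (23.5%), 2 of 12 synthesis genes (16.7%) and 2 of 15 ATF4 regulators (13.3%). Of the 222 genes, 50 were lower at 12 h (22.5%, against 8.98%) and 5 higher (2.25%, against 6.03%). The corrected fit gave 46 lower and 10 higher, and the fit without 0 h replicate 1 gave 24 lower and 1 higher. The stretches of AARS1, which charges alanine tRNA (log2 -0.13, adjusted p 0.0409), and ASNS, which makes asparagine (-0.27, 0.00604), both chosen after their values were seen, show the element in either orientation. When 0 h replicate 1 was left out their adjusted p was 0.106 and 0.139, and that of AARS1 missed the threshold under most alternatives.
AARS1, chr16:70289671-70289708, minus strand: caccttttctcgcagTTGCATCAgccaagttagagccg
ASNS, chr7:97872454-97872491, minus strand: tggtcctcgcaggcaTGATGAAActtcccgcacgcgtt

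Most targets of p53 were lower at 12 h. Of 27 genes tested, 19 were lower and 1 higher, with a median log2 change of -0.28. Of all genes 6.75% were lower, and 11.5% of those from 10 to 100 CPM and 17.6% from 100 to 1000 CPM. CDKN1A, the cyclin-dependent kinase inhibitor p21, was at 302.5 and 302 CPM at 0 h and at 220.2, 191 and 213 CPM at 12 h (log2 -0.54, SE 0.0485, adjusted p 1.06e-08). MDM2, the ligase that turns over p53, was at 196 and 183 CPM and then at 128, 141 and 142 CPM (log2 -0.47), and RRM2B, a ribonucleotide reductase subunit for repair, had -0.48. GADD45A, a growth arrest gene, was at 39.5 and 34.6 CPM and then at 26.0, 21.5 and 23.9 CPM (log2 -0.64). The 0 h and 12 h libraries did not overlap in any of the 4, which were named for small p-values (36.9% of all genes had no overlap).

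The p53 counts changed little with either doubt. With the GC correction 20 members were lower and 1 higher, and without 0 h replicate 1 17 were lower and 0 higher, with a median of -0.31. In the 3 libraries at 12 h the median member stood at -0.30, -0.33 and -0.29 relative to the 0 h mean, and in those at 24 h at -0.33, -0.39 and -0.30. Without the other 0 h library 15 were lower and 0 higher. SESN2 stands in the ATF4 list as well. Outside the list, CDKN1B (p27), another inhibitor of cyclin-dependent kinases, fell by 0.25 on the log2 scale.

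About as many replication genes were higher at 12 h as did not pass, and few genes of cell division passed the test. Of 26 genes of replication origin licensing and the replicative helicase, 14 were higher and 0 lower, with a median log2 change of 0.29. Of all genes 4.85% were higher, and of those from 10 to 100 CPM 8.14%. Of 28 genes of the replication fork and clamp 16 were higher and 0 lower (0.19), and of 21 genes of homologous recombination and the Fanconi pathway 10 were higher and 0 lower (0.19). Of 33 genes of mitosis, 1 (MKI67, a proliferation marker, log2 0.18) was higher and 0 lower, with a median of 0.02. MKI67 had 0.10 on the log2 scale (adjusted p 0.513) with 0 h replicate 1 left out. In bulk RNA, more cells in S phase and more RNA per cell cannot be told apart.

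MCM3, a subunit of the helicase ring, was at 34.1 and 40.2 CPM at 0 h and at 52.5, 55.9 and 53.3 CPM at 12 h (log2 0.54, SE 0.0608, adjusted p 3.05e-07). MCM6 of the same ring was at 25.5 and 29.7 CPM and then at 38.5, 42.5 and 39.9 CPM (log2 0.55). GINS2 was at 6.82 and 8.10 CPM and then at 11.4, 14.0 and 12.6 CPM (log2 0.77). All 12 h libraries lay above both 0 h libraries in the 3 genes, which were named by rules that favour this. Among all tested genes 36.9% had no overlap. In the 3 genes 0 h replicate 1 was the lower 0 h library each time.

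At the fork, CLSPN, the checkpoint mediator claspin, had a log2 change of 0.72, and the histone chaperones ASF1B and CHAF1B had 0.56 each. TK1, which salvages thymidine, rose from 54.8 and 66.3 CPM to 83.9, 85.3 and 86.6 CPM (log2 0.50), while 4 of 21 genes of nucleotide synthesis were higher in all. Of 23 E2F and G1 to S regulators 7 were higher and 3 lower (median 0.11), and 7 and 4 after the GC correction. Those higher gained 57.1 CPM and those lower lost 138 CPM. Over all genes 4.85% were higher and 6.75% lower. Among the higher regulators, E2F1 had 0.51 and CCNE2 (cyclin E2) 0.70. Of 10 genes that place, maintain or remove DNA methylation 3 were higher, UHRF1, CDCA7 and DNMT1, and DNMT1 had 0.31. Of 47 histone genes, whose transcripts mostly lack a poly(A) tail and are poorly captured here, 0 were higher and 2 lower.

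The replication counts moved with a single library, 0 h replicate 1, as did the count over all genes given above. Without 0 h replicate 1, 8 licensing, 4 fork and 2 recombination genes were higher, with medians of 0.16, 0.15 and 0.15, and 0 were lower. With the GC correction 16, 17 and 15 were higher and 0 lower, and 6 mitosis genes were higher. The adjusted p-values without 0 h replicate 1 were 0.513 for MKI67, 0.0596 for CCNE2 and 0.105 for CDCA7.

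E2F elements were searched as TTTGGCGC, TTTCCCGC, TTTCGCGC and TTTGCCGC. They were in 634 of the 12469 windows (5.08%), in 10 of 21 licensing genes (47.6%), 8 of 24 fork genes (33.3%), 5 of 18 recombination genes (27.8%) and 3 of 27 mitosis genes (11.1%). Over all 634 genes 53 were higher (8.36%, against 6.03% of genes with a window) and 44 lower (6.94%, against 8.98%). The GC correction gave 9.46% higher, against 6.77%, and the fit without 0 h replicate 1 gave 3.31%, against 1.54%. The stretches show the element in 2 licensing genes, and in MCM6 the letters of both orientations overlap.
MCM6, chr2:135876507-135876610, minus strand: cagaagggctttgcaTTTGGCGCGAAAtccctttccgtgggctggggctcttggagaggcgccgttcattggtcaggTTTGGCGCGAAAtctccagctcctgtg
GINS2, chr16:85688963-85689000, minus strand: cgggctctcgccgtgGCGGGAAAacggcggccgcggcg

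Genes of glycolysis and fatty acid synthesis that passed were mostly higher. Of all genes 4.85% were higher, and of those from 100 to 1000 CPM 10.8%. Of 21 glycolysis genes 12 were higher and 0 lower (median 0.17), and those that passed gained 2430 CPM. ENO1 (enolase) was at 2978 and 2932 CPM at 0 h and at 3801, 3659.6 and 3756 CPM at 12 h (log2 0.34, SE 0.0413, adjusted p 1.04e-06). PFKFB3, which makes the activator of phosphofructokinase, had 0.28, PFKP 0.27 and PKM 0.23. The corrected fit had 10 of the glycolysis genes higher and the fit without 0 h replicate 1 had 9. Of 20 hypoxia-response genes, which share some members with glycolysis, 2 were higher and 0 lower. That list had no stable direction: 1 was higher and 0 lower without 0 h replicate 1 (median 0.10), and 0 were higher and 3 lower without the other 0 h library (median -0.05).

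Of 18 genes of fatty acid synthesis and desaturation, 9 were higher and 2 lower (median 0.14). FASN was at 1144 and 1315 CPM at 0 h and at 1757, 1653 and 1819.7 CPM at 12 h (log2 0.50, SE 0.058, adjusted p 2.85e-06), and its 24 h mean was 1365 CPM. FADS2, a desaturase, was at 1808 and 1858 CPM and then at 2326, 2260.3 and 2226 CPM (log2 0.31). SREBF1, whose product drives these genes, had 0.25, and 0.13 after the GC correction, and ELOVL6 had 0.28. Of 25 cholesterol genes 2 were higher and 5 lower. Without 0 h replicate 1, 8 fatty acid genes were higher and 0 lower, and of the cholesterol genes 1 was higher and 1 lower. The GC-corrected counts were 12 and 0 for fatty acid genes and 2 and 5 for cholesterol genes.

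Few genes of respiration and translation passed. Of 60 nuclear genes of oxidative phosphorylation 4 were higher and 1 lower (median 0.04), of 13 mitochondrial messenger RNAs 0 and 1, of 77 mitochondrial ribosomal proteins 4 and 3, and of 86 cytosolic ribosomal proteins 0 and 3. One of those 3 was RPS27L (log2 -0.26), a paralogue that p53 is known to raise. Of 37 ribosome biogenesis genes 4 were higher and 2 lower, and of 31 proteasome subunits 1 and 1. Over all genes 4.85% were higher and 6.75% lower. Of 26 genes of a heat shock list, mostly cytosolic but with some mitochondrial chaperones, 8 were higher and 2 lower. Higher were HSPB1 (211 and 226 CPM at 0 h, 291, 279 and 279 CPM at 12 h, log2 0.37), FKBP4 (0.32) and STIP1 (0.23), among others. The mitochondrial chaperone HSPA9, a member of this list, fell by 0.26 on the log2 scale. Without 0 h replicate 1, 2 were higher and 1 lower, and the adjusted p of STIP1 was 0.0752.

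**Figure D4:**
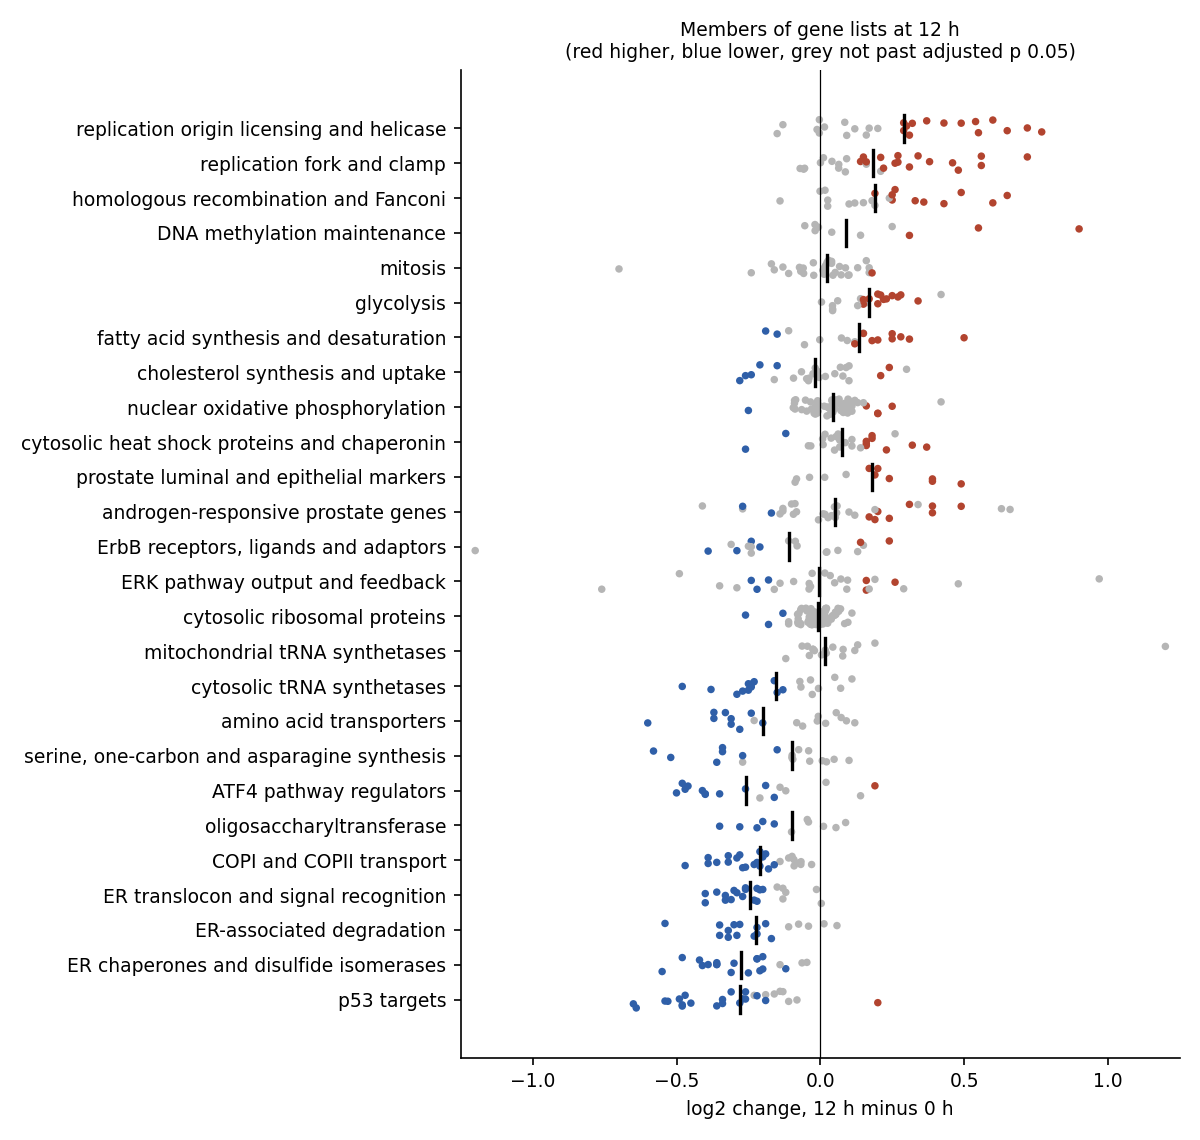
Log2 change from 0 h to 12 h of every tested member of 26 gene lists (1 point a gene, red higher and blue lower past an adjusted p of 0.05, grey not past it), with the list median as a black bar. The replication lists sit to the right and the ER, amino acid and p53 lists to the left, with medians of 0.29 for licensing genes and -0.28 for p53 targets; 1 point beyond the axis is drawn at its edge.

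Some prostate genes were higher at 12 h, where 4.85% of all genes and 10.8% of those from 100 to 1000 CPM were. Of the 12 luminal and epithelial markers 7 were higher and 0 lower (median 0.18), and of 34 androgen-responsive genes, which share several with the markers, 8 were higher and 2 lower (0.05). KLK2 had a log2 change of 0.39 (SE 0.0569, edgeR adjusted p 2.12e-05). KLK4, a relative of KLK3, had 0.31. With the GC correction 6 markers and 9 androgen-responsive genes were higher, and without 0 h replicate 1 these were 3 and 4.

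The ErbB receptors HER2 and HER3 were slightly higher at 12 h. ERBB2 (HER2) was at 194 and 213 CPM at 0 h and at 248, 229 and 241 CPM at 12 h (log2 0.24, SE 0.0474, adjusted p 0.000901). ERBB3 (HER3) was at 176 and 181 CPM and then at 202, 193 and 195 CPM (log2 0.14, adjusted p 0.0354). EGFR was at 191 and 167 CPM and then at 194, 169.8 and 197 CPM, with overlapping groups (log2 0.06, adjusted p 0.602). Of 19 receptors, ligands and adaptors 2 were higher and 4 lower, the latter including ERRFI1, a feedback inhibitor of EGFR (-0.24), and RNF41, a ligase that turns over HER3 (-0.21). Of all genes 4.85% were higher and 6.75% lower. Leaving out 0 h replicate 1 gave adjusted p-values of 0.0979 for ERBB2, 0.279 for ERBB3, 0.252 for ERRFI1 and 0.0714 for RNF41, and ERBB3 missed the threshold in 8 of 18 alternatives. The GC correction left the list at 2 higher and 4 lower.

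Downstream lists were mixed. Of all genes 4.85% were higher and 6.75% lower, and from 10 to 100 CPM 8.14% and 11.5%. Several of the lists below were near the latter shares. Of 28 genes of ERK output and feedback 3 were higher and 3 lower, with JUN at 104.8 and 103 CPM and then at 90.8, 81.9 and 94.1 CPM (log2 -0.22) and DUSP7, an ERK phosphatase, at 0.26. Of 22 FOXO targets and insulin receptor genes 2 were higher and 5 lower, of 19 YAP/TAZ targets 1 and 2, of 24 genes of TGF-beta and BMP signalling 1 and 3, of 15 NF-kB genes 0 and 2, and of 37 interferon-stimulated genes 2 and 0. Without 0 h replicate 1, where 624 genes passed in all, 0 of the ErbB and 0 of the ERK members did, and the adjusted p was 0.0915 for JUN and 0.219 for DUSP7. In the same fit 0 FOXO genes were higher and 2 lower. The GC-corrected fit had 3 ERK genes higher and 4 lower, 2 FOXO genes higher and 6 lower, and DUSP7 at an adjusted p of 0.069. Of 29 genes of calcium pumps, channels and sensors 2 were higher and 4 lower, with ATP2B1, a pump that exports calcium, at 254 and 223 CPM and then at 178, 179.6 and 183 CPM (log2 -0.40, SE 0.049) and ATP2C2, a Golgi calcium pump, at -0.35.

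Metal, clock and autophagy genes moved in both directions. Of all genes 4.85% were higher and 6.75% lower, and from 10 to 100 CPM 8.14% and 11.5%. The circadian counts were near the latter shares. Of 23 zinc transporters and metallothioneins 4 were higher and 7 lower. MT1G, a zinc-binding metallothionein, rose from 19.2 and 17.6 CPM to 31.6, 30.2 and 28.7 CPM (log2 0.71, SE 0.0763, adjusted p 1.32e-07), and SLC30A1, which exports zinc, had 0.43. Of 21 circadian genes HLF (0.84) and NPAS2 (0.53) were higher and 3 lower, among them NR1D2 at 119 and 109 CPM and then at 84.9, 88.7 and 87.5 CPM (log2 -0.39). Of 33 autophagy and lysosome genes 1 was higher and 7 lower, led by MAP1LC3B (LC3B), which went from 104 and 89.2 CPM to 67.8, 61.5 and 62.6 CPM (log2 -0.60, adjusted p 2.5e-08). Of 23 NRF2-responsive genes 0 were higher and 6 lower with a list median of 0.04, and among these SLC7A11 is shared with the amino acid transporters. After the GC correction 3 zinc, 2 circadian, 1 autophagy and 1 NRF2 genes were higher and 7, 3, 6 and 4 lower. Dropping 0 h replicate 1 left 2, 3, 0 and 0 higher and 2, 2, 3 and 1 lower, and NPAS2 missed the threshold without the other 0 h library and without 12 h replicate 3.

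**Figure D5:**
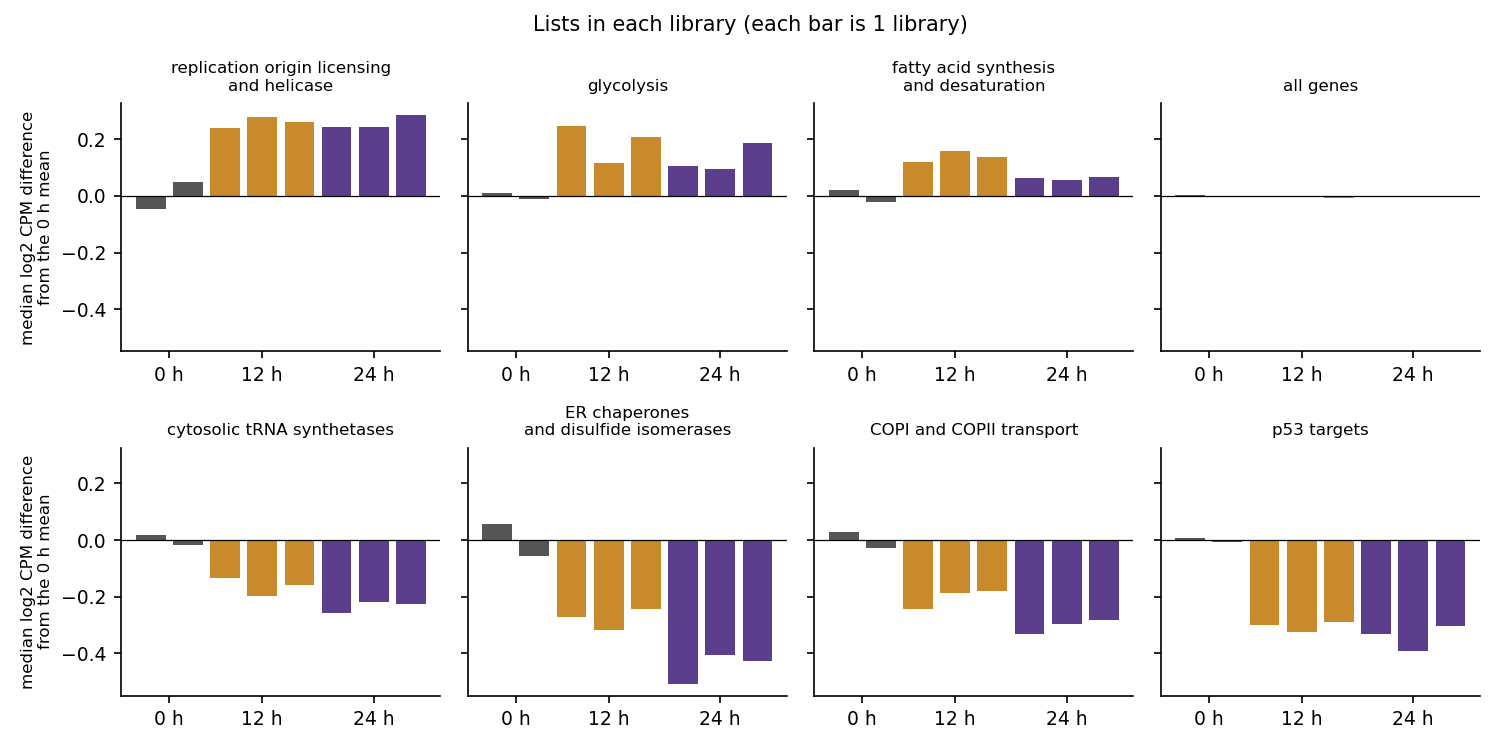
Median over the tested members of 8 gene sets of the log2 CPM difference from the mean of the 0 h libraries, 1 bar for each library (grey 0 h, orange 12 h, purple 24 h). The median p53 target stands between -0.29 and -0.33 in the 12 h libraries and the median licensing gene between 0.24 and 0.28, while the median of all genes stays near 0.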

How the data were processed

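RNA of LNCaP cells was sequenced as paired reads from poly(A)-selected libraries. Per the labels and the study's methods, the authors trimmed adaptors with Cutadapt, checked reads with FastQC 0.11.9, aligned them with STAR to GRCh38.p13, deposited raw counts per gene from featureCounts on GENCODE 38, and left out 1 replicate at time 0 for quality. How strand and reads with several positions were counted is not given in the sources used here. Time-0 samples are numbered 1 and 2 in the labels but 1 and 3 in the count table, so the latter column was used as a 0 h library without a replicate number, and with its column number only in the replicate block. All 8 libraries entered 1 fit in edgeR 4.0.16 (R 4.3.3; filterByExpr, trimmed mean of M values, robust quasi-likelihood F test, contrast 12 h minus 0 h), with Benjamini-Hochberg adjustment over 21071 genes and thresholds of 0.05 and 1.5-fold. The biological coefficient of variation was 5.59%. Simulated counts held changes only in genes above 1 CPM and no slope on GC content. In them 68% of genes changed by 1.3-fold and 86% of those changed by 1.5-fold were recovered (20500 genes tested). These rates do not cover genes under 1 CPM. Separate wells of 1 line are compared, so p-values measure the spread between wells. A count of 0 allows up to 3 counts, 0.0309 to 0.0409 CPM, which covers counting error only.

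The gene lists (56 lists, 2026 of 2207 genes tested) and members were chosen with earlier results of these data known. Named genes were, per abundance class from 1 CPM up, the 3 higher and 3 lower with the largest change and no overlap; per noncoding gene type, the 2 with the smallest p in each direction; per list, up to 4 with the smallest p; the 6 with the largest gain and loss in CPM; and KLK3, ERBB2, ERBB3, EGFR and ASPN. Clone-based names were left out, some genes the rule picked are not reported here, and TPI1, AARS1 and ASNS were named after their values were seen. Alternatives were other normalizations, filters, thresholds and depths, DESeq2 1.42.0, fewer libraries or genes, a replicate block, and, chosen after seeing the data, a GC and length correction. Promoter windows came from RefSeq (GRCh38.p14).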

Additional observations from a re-analysis of the deposited data

Results flagged for a closer look

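Genes named for the widest change in an abundance class or for the largest gain or loss in CPM were searched for reversals. In 5 of them the change from 12 h to 24 h went against that from 0 h to 12 h. Both changes passed an adjusted p of 0.05 by edgeR. Genes named only by the other rules were not searched. The 2 contrasts share the 12 h libraries, so a 12 h group that lies high or low by chance moves both. The log2 difference of 24 h minus 12 h was -0.352 for FASN (adjusted p 0.000278), -0.183 for KLK3 (0.0129) and -0.213 for PGK1 (0.0061), which had risen by 12 h. It was 0.364 for MAN1A1 (0.0061) and 0.154 for MT-ND1 (0.0264), which had fallen. The groups of 2 or 3 libraries were too small to test for single extreme libraries.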

How the results depend on the processing

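Leaving out 1 library at a time gave 624 to 2761 genes past an adjusted p of 0.05 (246 to 1296 higher and 378 to 1537 lower) and 78 to 300 called genes (41 to 155 higher and 37 to 145 lower), the lowest each time without 0 h replicate 1. An adjusted p of 0.01 left 1292 genes (509 higher, 783 lower). A mean of at least 100 counts gave 140 called genes (66 and 74), a fold of 1.2 gave 1174 (497 and 677), a fold of 2 gave 78 (36 and 42) and glmTreat against 1.5-fold gave 4 (1 and 3). The other alternatives kept both totals within 1.5 times, from 1687 genes past the test with the 0 h and 12 h libraries alone to 2761 with DESeq2. EGFR, not past the test, had a log2 change of -0.0224 without the second 0 h library and 0.163 without 0 h replicate 1. A replicate block on the column numbers gave 2114 genes past the test and 219 called, with 1987 of the 2443 among them. Deviations from the group means had correlations of -0.179 to 0.12 between same-numbered libraries. With 2 libraries at 0 h these deviations mirror each other, so the values cannot decide whether the numbers pair the samples. Under the block 6 mitochondrial messenger RNAs were lower, against 1. Depth limits genes under 1 CPM, where the smallest change past the test was 0.736 on the log2 scale.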
